A study of Mus musculus with 4 samples.

Results

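Interferon-inducible GTPases are a group of 8 genes, chosen by name from the 18200 genes of the table: the immunity-related GTPases Igtp, Irgm1, Irgm2, Ifi47 and Iigp1 and the guanylate-binding proteins Gbp2, Gbp3 and Gbp7. All 8 had an entry. They were measured in RNA from polysomes, messenger RNA that carries several ribosomes, of mouse cells that the labels call ADSCs and the series title places among mesenchymal stem cells. The labels give every library the genotype WT. They assign 2 libraries to a scrambled control and 2 to a knockdown of Ifit1 by shRNA, with replicate 1 of each in batch 1 and replicate 2 in batch 2. No total RNA was analysed here, so the amount of a messenger RNA and its loading with ribosomes cannot be told apart, nor can fewer cells of a type and less RNA per cell.

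Immunity-related GTPases and guanylate-binding proteins are switched on by interferons, most strongly by interferon gamma. Effector members bind the membrane of vacuoles that hold parasites or bacteria and help to break it open, while the regulatory M class, to which Irgm1, Irgm2 and Igtp belong, sits on the cell's own membranes and keeps the effectors inactive there. In mice the genes lie in clusters of close relatives, and many have an interferon-stimulated response element (ISRE) or a gamma-activated site (GAS) near the start site, the places where the factor complexes of type I and type II interferon bind.

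The libraries went against their labels in the targeted gene. Ifit1 stood at 1.93 and 1.91 FPKM (fragments scaled to gene length and library depth) in the scrambled libraries and at 13.9 and 14.8 in those labelled knockdown, a 7.47-fold difference opposite to the label. Directions below follow the labels as given. Depth differed little, with 24493423 to 29884302 recovered fragments per library. Of the 8750 genes tested, 1661 (19.0%) had values in knockdown 1 within 5% of scrambled 2 and in knockdown 2 within 5% of scrambled 1. Of the 2741 tested genes called neither higher nor lower, 1660 (60.6%) had such crossed values. A gene said below not to pass can therefore not be read as unchanged, nor can a list whose median falls on such genes. No tested GTPase had crossed values, which follows from each being well higher in both libraries labelled knockdown and says nothing more. Mesenchymal stromal markers were present, and most moved in the direction of the GTPases: all 10 had an entry, 6 were tested and 6 were higher. Of all tested genes 27.4% were higher and 41.2% lower, shares that stand beside each marker list here. The stromal markers summed to 41.7 and 41.1 FPKM in the scrambled libraries against 97.7 and 96.8, a rise carried mostly by Thy1 and Ly6a. Under the filter, Pdgfrb was near equal (1.03-fold), Alcam was called lower with a filter of 0.1 FPKM (fold 0.716, limma adjusted p = 0.033), and Nt5e had at most 4 fragments. Pdgfra, also under the filter, had 1 and 3 fragments in the scrambled libraries against 44 and 39. Adipocyte markers (4 of 7 with an entry, 2 tested and both lower) summed to 5.76 and 5.79 FPKM against 2.72 and 2.80, a sum carried by Pparg and Fabp4. Lpl of the same list went up, from 0.115 and 0.120 to 0.294 and 0.321 FPKM (limma adjusted p = 0.0014 with the filter of 0.1). Endothelial markers (4 of 6 with an entry, 1 tested and higher) summed to 1.69 and 1.63 FPKM against 4.70 and 4.47, nearly all of it Egfl7, while Pecam1 and Vwf had 1 to 4 fragments per scrambled library and 0 in those labelled knockdown. The part of these shifts in the results on the GTPases was not tested. Leukocyte and macrophage markers, from cells rich in these GTPases, summed to between 9.22 and 9.43 FPKM in every library (6 of 11 with an entry, 2 tested, 1 higher and 1 lower). Nearly all of that sum came from the 2 tested genes, whose opposite moves offset each other. The even sum therefore does not show that these markers kept their levels. The defining markers Ptprc, Adgre1, Itgam and Cd3e had no entry in the table used, and Lyz2 had at most 1 fragment.

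The promoters of the members are shown because the genes moved together, and because an ISRE-type run of letters, GAAANNGAAA, was searched in all of them on both strands. RefSeq windows (GRCm38.p6) of 300 bases, from 250 before to 50 after each start site, were held for 7 of the 8 members, and 6 of the 7 genes had a window with the letters. Of all 27025 genes with a window, 3.99% had one, and of all 32851 windows 3.44% did. Of 7 further relatives with a window, 5 had the letters. Each sequence below runs along the gene's strand, with the match in capitals and 30 bases on either side. In the 3 Gbp genes the match lies on the opposite strand and appears as its reverse complement. Gbp3 has 2 windows, and the one shown is the one with a match.
Igtp, chr11:58199492-58199561, plus strand: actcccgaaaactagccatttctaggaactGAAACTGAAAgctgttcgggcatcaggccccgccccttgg
Irgm2, chr11:58214883-58214952, plus strand: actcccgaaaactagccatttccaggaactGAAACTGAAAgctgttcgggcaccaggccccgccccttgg
Irgm1, chr11:48871405-48871480, minus strand: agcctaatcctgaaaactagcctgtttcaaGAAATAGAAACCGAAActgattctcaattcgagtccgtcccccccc
Gbp2, chr3:142620574-142620643, plus strand: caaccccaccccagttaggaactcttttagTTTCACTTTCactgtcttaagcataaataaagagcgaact
Gbp3, chr3:142559969-142560044, plus strand: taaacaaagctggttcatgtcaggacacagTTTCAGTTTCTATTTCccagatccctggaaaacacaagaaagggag
Gbp7, chr3:142530253-142530322, plus strand: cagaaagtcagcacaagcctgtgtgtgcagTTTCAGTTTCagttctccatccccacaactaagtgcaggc

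The neighbours Igtp and Irgm2 had the same 70 bases apart from 2. Irgm1 and Gbp3 held a pair of overlapping matches. The first matching base lay at -34 in Igtp, -64 in Irgm2, -30 in Irgm1, -59 in Gbp2, -45 in Gbp3 and -53 in Gbp7, counted from the start site. GAS-type letters, TTCNNNGAA, which read the same on both strands, were present in the windows of 3 of the 7 members, Igtp, Irgm2 and Gbp7, and of 4 of the 7 relatives, against 9.55% of all genes and 8.30% of all windows. In Igtp and Irgm2 they lay shortly before the ISRE-type match, beginning at -45 and -75. Neither run of letters was in the Ifi47 window. With the members left out, 76 of 233 tested genes with the ISRE-type letters (32.6%) were higher in the libraries labelled knockdown and 82 (35.2%) lower. Of 6877 tested genes without them, 1862 (27.1%) were higher and 2835 (41.2%) lower, and the median log2 changes were -0.02 and -0.03. These are letter matches in a short window and show no binding.

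**Figure D1:**
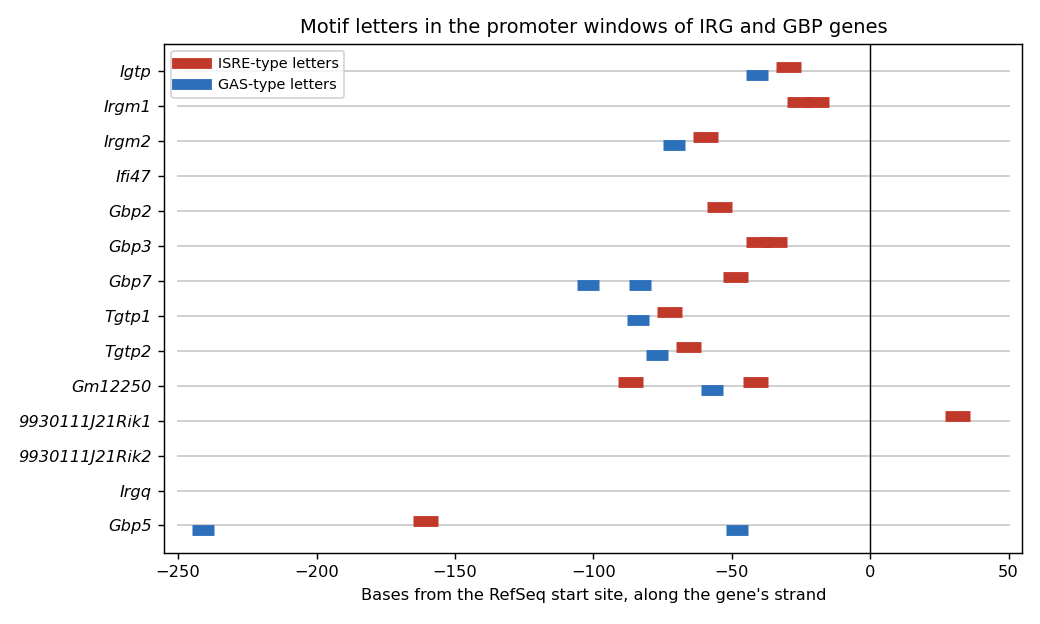
Positions of ISRE-type letters (GAAANNGAAA, red) and GAS-type letters (TTCNNNGAA, blue) in the RefSeq promoter windows of the listed GTPases and their relatives; the x axis is the distance in bases from the start site and each grey line is 1 gene's window. In the 6 listed genes with a match, the ISRE-type letters begin between -64 and -24; for Gbp3 the window with a match is drawn.

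All 8 GTPases were higher in both libraries labelled knockdown than in either library labelled scrambled, with 28.1% of all 18200 genes showing the same order. The ratio of group means ran from 2.14-fold for Irgm1 to 23.6-fold for Gbp7, with Iigp1 nearly at 0 in the scrambled libraries. Irgm1 was the most abundant in each library. Of the members' summed FPKM (a measure per gene length) it made up 84.9% and 84.8% in the scrambled libraries and 60.2% and 62.1% in those labelled knockdown.

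Of the regulatory M class, Irgm1 (Entrez gene 15944), which guards the cell's own membranes against effector GTPases and is needed for resistance to intracellular bacteria, stood at 8.47 FPKM in both scrambled libraries and at 17.8 and 18.5 in the others. Its group means were 8.47 ± 0.00171 and 18.2 ± 0.456 FPKM (SD, n = 2). The libraries fall into 2 levels with a wide gap, and Irgm1 was the only member with a mean over 1 FPKM in the scrambled libraries. It rose by 1.02 on the log2(FPKM + 1) scale, the scale of every log2 change given here (SE 0.025, limma adjusted p = 1.6e-04). Within batch 1 the change was 0.99 and within batch 2 it was 1.04.

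Igtp (16145), also called Irgm3, was at 0.322 and 0.329 FPKM in the scrambled libraries and 3.63 and 3.50 in those labelled knockdown, a 10.9-fold ratio of means. Its log2 change of 1.78 (SE 0.022, limma adjusted p = 1.6e-04) was rank 55 from the top among the 8750 tested genes, and was 1.81 in batch 1 and 1.76 in batch 2. Irgm2 (54396) had 0.256 and 0.247 FPKM against 1.72 and 1.85, with a 7.09-fold ratio and a log2 change of 1.15 (SE 0.029, limma adjusted p = 1.6e-04), 1.12 in batch 1 and 1.19 in batch 2. Both were low in the scrambled libraries and had larger ratios than Irgm1. Part of the reads could be assigned to either of these neighbours. Of the distinct 50-base stretches in Igtp transcripts of GENCODE M21, 11.8% occur in Irgm2. Of those in Irgm2 transcripts, 6.8% occur in Igtp and 7.8% in any other gene.

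Of the other immunity-related GTPases, Ifi47 (15953), also called Irgd, stood at 0.293 and 0.292 FPKM in the scrambled libraries and at 2.32 and 2.29 in those labelled knockdown. The replicates were 0.01 and 0.10 counting SDs apart, closer than counting error usually leaves them, so the SE is likely too small. The groups were far apart, 7.87-fold, with a log2 change of 1.35 (SE 0.013, limma adjusted p = 1.6e-04). It was 1.36 in batch 1 and 1.35 in batch 2. Iigp1 (60440), or Irga6, an effector that coats the vacuoles of Toxoplasma, was listed at 0 and 0.00735 FPKM in the scrambled libraries and at 1.27 and 0.643 in those labelled knockdown. In fragments these were 0 and 1 against 175 and 81, a depth-scaled ratio of 241 with a 95% exact (Clopper-Pearson) counting interval from 42.9 to 9568. The libraries labelled knockdown differed 1.98-fold from each other, 5.27 counting SDs, the widest replicate gap of the 8 genes, and its mean there was 0.959 ± 0.447 FPKM (SD, n = 2).

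Among the guanylate-binding proteins, Gbp2 (14469), a lipid-anchored member that gathers on bacterial and parasite vacuoles, was at 0.481 and 0.479 FPKM in the scrambled libraries and 1.67 and 1.79 in those labelled knockdown. The ratio was 3.61-fold and the log2 change 0.88 (SE 0.028, limma adjusted p = 1.9e-04). Both batches gave similar values, 0.85 and 0.92. Gbp3 (55932) had 0.147 and 0.145 FPKM against 0.862 and 0.931, 6.15-fold, from 15 and 18 fragments against 108 and 107. Gbp7 (229900) had 0.00552 and 0.0182 FPKM against 0.284 and 0.275, from 1 and 4 fragments against 63 and 56. Its depth-scaled ratio was 22.4 with a counting interval from 9.35 to 70.4, so the size of its rise is known only loosely. Of the distinct 50-base stretches in its transcripts, 12.7% occur in other genes.

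**Figure D2:**
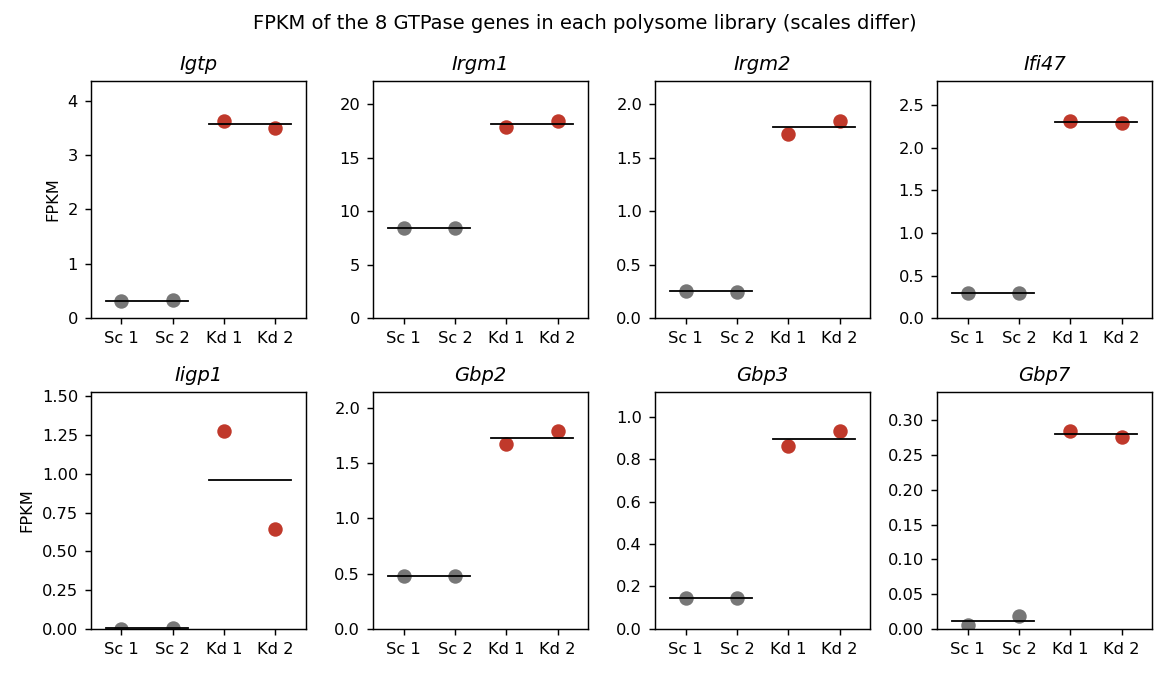
FPKM (y axis, from 0, a scale of its own for each gene) of the 8 GTPases in the libraries labelled scrambled (Sc, grey) and knockdown (Kd, red); each point is 1 library and each line a group mean. In every panel both red points lie above both grey points, and only Iigp1 has red points far apart, at 1.27 and 0.643.

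The order of the levels changed between the groups. In the scrambled libraries it was Irgm1, Gbp2, Igtp, Ifi47, Irgm2, Gbp3, Gbp7 and Iigp1, from 8.47 to 0.00367 FPKM, and only the last neighbours, Gbp7 and Iigp1, overlapped between replicates. In those labelled knockdown it was Irgm1, Igtp, Ifi47, Irgm2, Gbp2, Iigp1, Gbp3 and Gbp7, from 18.2 to 0.280 FPKM, where Irgm2 overlapped with Gbp2 and Iigp1 with Gbp3. In the scrambled libraries Igtp, Ifi47 and Irgm2 rested on only 47, 42 and 63 summed fragments. Their replicates there lay closer than counting error usually leaves them, so the lack of overlap does not settle the order among these genes.

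Genes with a mean of at least 1 FPKM were tested, which 5 of the 8 reached: Igtp, Irgm1, Irgm2, Ifi47 and Gbp2. All 5 were called higher and 0 lower, where 27.4% of tested genes were higher and 41.2% lower. That count carries little weight, since 4 of the 5 reached the filter only through the libraries labelled knockdown. With a filter of 0.1 FPKM all 8 were tested and all 8 called, against 27.9% of 12152 genes, and limma's adjusted p was 2.9e-04 for Gbp3, 3.5e-04 for Gbp7 and 0.026 for Iigp1. That count has the same limit, as Iigp1 and Gbp7 reached 0.1 only through the libraries labelled knockdown. Across the 8 the median log2 change was 0.98 with the filter of 0.1, where that of all genes was -0.02. Adding 1 to the FPKM shrinks the changes of genes this low, as with Gbp7, whose log2 change was 0.34. Centring the libraries on their medians moved the median of all tested genes from -0.02 to 0.15. The replicates of the 6 members with at least 10 scrambled fragments were between 0.00 and 0.14 counting SDs apart in the scrambled libraries and between 0.10 and 0.77 in those labelled knockdown, so the SEs above can understate counting error. When no SE was allowed below counting error, the 5 tested members still passed, with limma adjusted p from 0.0017 to 0.026. That floor was the counting error of log2 fragments without the added 1, so it is too wide for genes at low FPKM.

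**Figure D3:**
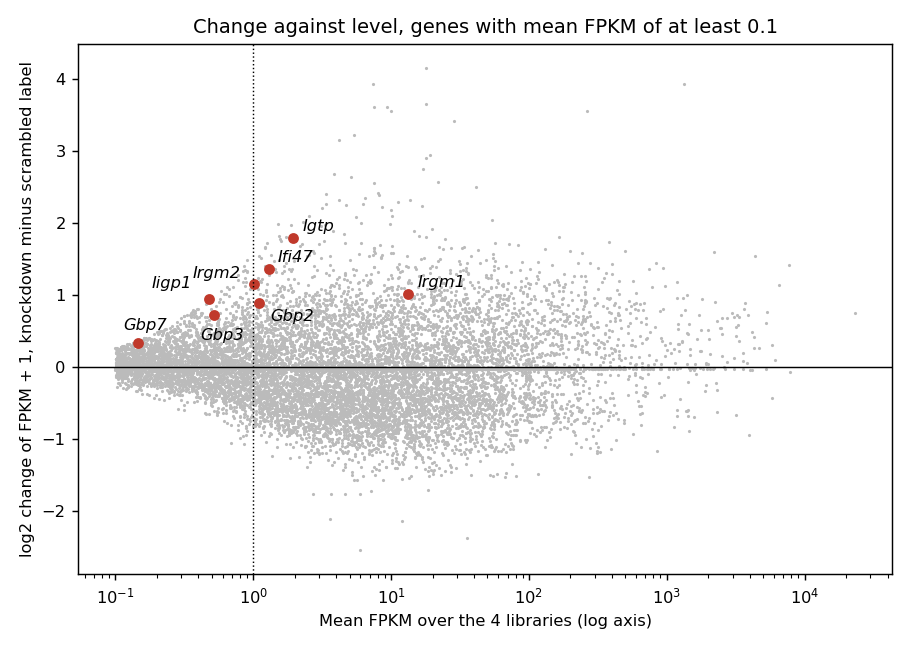
Log2 change of FPKM + 1 (y axis) against mean FPKM over the 4 libraries (x axis, log scale) for genes with a mean of at least 0.1; grey points are single genes, red points the 8 GTPases, and the dotted line marks the filter of 1 FPKM. All 8 lie above 0, and at low mean FPKM the added 1 narrows the whole cloud, which places Gbp7 at only 0.34.

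Of 10 further immunity-related GTPases and 4 further guanylate-binding proteins, 13 stayed under 0.3 FPKM in every library, 8 were at 0 in both scrambled libraries, and 10 were higher in both libraries labelled knockdown than in either scrambled one, an order shown by 28.1% of all genes. Tgtp2 had 3 and 4 fragments in the scrambled libraries and 24 and 25 in those labelled knockdown. Its near copy Tgtp1 had 0 and 1 against 25 and 13, and 81.2% of the 50-base stretches of Tgtp1 occur elsewhere, so their reads cannot be kept apart with certainty. Gm12250, also called Irgb10, which acts on bacterial membranes, had 0 and 1 fragments against 26 and 13, a ratio of 36.8 with a counting interval from 6.22 to 1489. Iigp1c had none in the scrambled libraries and 17 and 15 in those labelled knockdown, at least 10.05-fold higher when 3 counts are taken as the limit for the scrambled group.

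Gbp6 had 0 and 1 fragments against 17 and 9. Gbp9 was listed at 0 in the scrambled libraries and at 0.0991 and 0.108 FPKM in those labelled knockdown. Gm4841, 9930111J21Rik1, 9930111J21Rik2, F830016B08Rik, Irgc1, Gbp4 and Gbp5 had at most 0.0974 FPKM in any library. The only relative over the filter of 1 FPKM was Irgq, a divergent family member. It fell from 1.32 and 1.29 to 0.844 and 0.848 FPKM (log2 -0.32, limma adjusted p = 3.8e-04). With no SE below counting error the limma adjusted p was 0.26. That floor is too wide at this level. No narrower one was fitted, so whether Irgq passes at counting error was not tested. The counting interval of its depth-scaled ratio was 0.498 to 0.848.

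**Figure D4:**
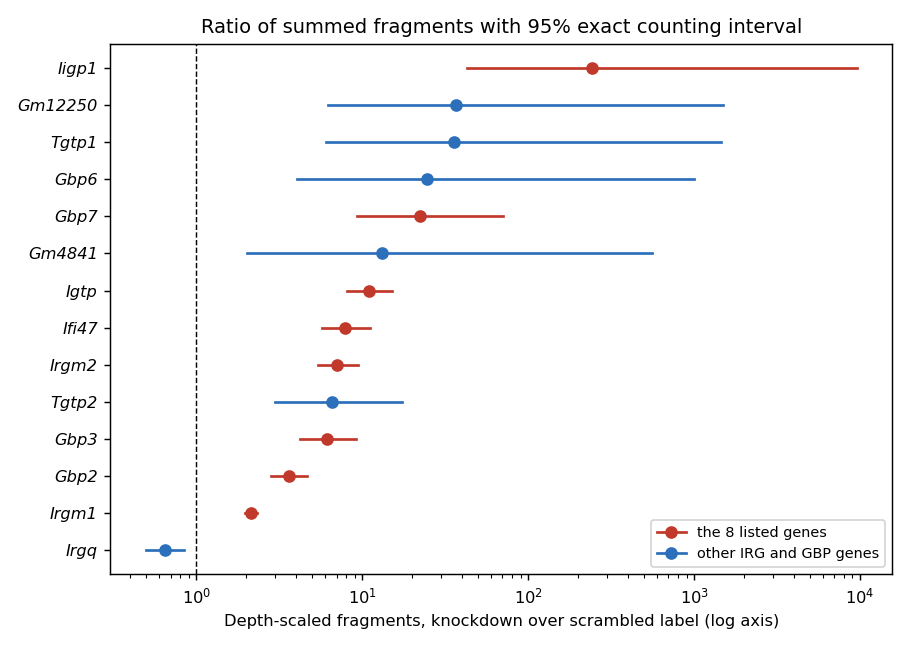
Depth-scaled ratio of summed fragments, libraries labelled knockdown over scrambled (x axis, log scale), for the 8 listed GTPases (red) and those relatives with fragments in both groups (blue); points are ratios and bars 95% exact counting intervals. The ratios run from 0.651 for Irgq to 241 for Iigp1, and the widest bars belong to genes with 1 fragment in the scrambled libraries.

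Of the atlastins, GTPases of the endoplasmic reticulum that share the guanylate-binding protein fold, Atl2 and Atl3 were lower and Atl1 was not. Atl2 fell from 2.91 and 2.82 to 1.46 and 1.47 FPKM and Atl3 from 5.49 and 5.36 to 3.10 and 3.13 (log2 -0.65 and -0.64, limma adjusted p = 1.8e-04 each). They were the only tested members among 5 with an entry in a list of Mx, Gvin and atlastin GTPases. Atl1, under the filter, had 0.2535 and 0.1996 FPKM against 0.207 and 0.255, and with the filter of 0.1 it did not pass (log2 0.01, limma adjusted p = 0.99).

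Genes near the GTPase clusters moved in both directions. On each side of each cluster the 2 nearest protein-coding genes with an entry were taken in RefSeq order, chosen after the values were seen. Family members, olfactory receptors and genes whose symbol begins with Gm were skipped. The genes taken came to 12, of which 8 were tested: 1 was higher, 6 lower and 1 did not pass, where 27.4% of all tested genes were higher and 41.2% lower. Gemin5 and Mrpl22, before Igtp and Irgm2, fell by 1.03 and 0.45 on the log2 scale. Pdlim5, Kyat3 and Gtf2b, around the Gbp cluster, fell by 0.80, 0.38 and 0.51. Near Irgm1 and Ifi47, Trim41 fell by 0.32 and Mgat1 rose by 0.58. Trim7 and Zfp62, beside the same cluster and under the filter of 1 FPKM, were both called higher with the filter of 0.1. Trim7 went from 0.419 and 0.418 to 0.972 and 1.00 FPKM (2.36-fold, log2 0.49, limma adjusted p = 2.5e-04) and Zfp62 changed by 0.06 (limma adjusted p = 0.032).

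Upstream of the GTPases, the signalling genes moved in both directions. Of 14 tested members of 18 with an entry, 8 were higher, 3 lower and 3 did not pass, with a median log2 change of 0.38, where 27.4% of all tested genes were higher, 41.2% lower and the median was -0.02. The list's median was 0.13 with the filter of 0.1 and 0.04 without a filter. Irf9, the DNA-binding part of the complex that reads the ISRE, went from 5.66 and 5.67 FPKM up to 23.1 and 24.4, a log2 change of 1.89 (SE 0.033, limma adjusted p = 1.6e-04). Stat2, its partner, rose from 1.12 and 1.11 to 2.91 and 2.99 FPKM. Socs1, an inhibitor of JAK kinases that is itself induced, rose from 3.73 and 3.61 to 7.78 and 7.55. Jak1, the kinase shared by type I and type II interferon receptors, went the other way, from 10.4 and 10.2 to 4.01 and 4.08 FPKM (log2 -1.16).

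Of the genes closest to interferon gamma, named after their values were seen, the receptor chains Ifngr1 and Ifngr2 rose by 0.58 and 1.16 on the log2 scale. Irf1, the factor through which many guanylate-binding proteins are induced, did not pass, at 19.6 and 17.9 FPKM against 16.9 and 18.7 (log2 -0.07, limma adjusted p = 0.53). Of the ligands, Ifng had no entry, and Ifnb1 was listed at 0 in 3 libraries and at 0.0333 FPKM in knockdown 2.

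The lipidation machinery of the ATG8 proteins, which directs these GTPases to the right membranes, had 10 tested genes. Of these 2 were higher, 1 lower and 7 did not pass (median log2 change -0.02), where 27.4% of all tested genes were higher and 41.2% lower. That median fell on genes with crossed values, so it does not show an unchanged list. Both genes of this list that rose were ATG8 proteins. Map1lc3a rose from 80.2 and 78.7 to 216 and 212 FPKM (log2 1.42) and Gabarap from 434 and 427 to 654 and 658 (log2 0.61). The conjugating enzyme Atg3 passed at -0.09 (limma adjusted p = 0.016). A batch block gave an adjusted p of 0.13, leaving out any 1 library gave 0.06 to 0.17, and median-centring turned the sign to 0.08. Atg16l1, which guides the conjugation, did not pass at 0.13 (adjusted p = 0.095) and did after median-centring (0.31, adjusted p = 0.015).

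Prenylation enzymes, some of which attach the lipid by which Gbp2 holds to membranes, numbered 7 tested genes. Of these 2 were higher, 2 lower and 3 did not pass, where 27.4% of all tested genes were higher and 41.2% lower. The list's median was -0.02, and -0.17 and -0.18 without scrambled 2 and without knockdown 2. The value of -0.02 was that of a gene with crossed values, so it does not show an unchanged list. Fnta, the alpha subunit common to farnesyl and geranylgeranyl transferase, fell from 105 and 106 to 56.3 and 57.9 FPKM (log2 -0.87). Pggt1b, the beta subunit for geranylgeranyl transfer, rose by 0.15 (limma adjusted p = 0.0025). With no SE below counting error the limma adjusted p was 0.17. That floor is too wide at this level. No narrower one was fitted, so whether Pggt1b passes at counting error was not tested. The counting interval of its depth-scaled ratio was 1.11 to 1.33. Rce1, which trims prenylated proteins, rose by 0.67 (SE 0.15, limma adjusted p = 0.031). It did not pass under the batch block (adjusted p = 0.09) or when any 1 library was left out (adjusted p from 0.052 to 0.11). Rabggtb, of the Rab geranylgeranyl transferase, passed at -0.24 but not after median-centring (adjusted p = 0.25).

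Among adaptors and effectors that act with the GTPases on vacuoles, 2 of 6 tested were higher, 2 lower and 2 did not pass (median 0.06). Shares over all tested genes were 27.4% higher and 41.2% lower. The list's median was 0.13 with the filter of 0.1, -0.30 with a filter of 1 FPKM on the scrambled libraries alone, and -0.10 and -0.11 without scrambled 2 and without knockdown 2. Casp4, the caspase that senses bacterial lipopolysaccharide freed by guanylate-binding proteins, rose from 0.563 and 0.567 to 3.32 and 3.40 FPKM (log2 1.48). Trim21, a ubiquitin ligase recruited to vacuoles, rose from 0.345 and 0.348 to 2.22 and 2.32 (log2 1.28). Traf6, another ubiquitin ligase, fell by 0.61 and the autophagy receptor Tax1bp1 by 0.57. Casp4 and Trim21 were, like most of the GTPases, below 1 FPKM in the scrambled libraries.

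**Figure D5:**
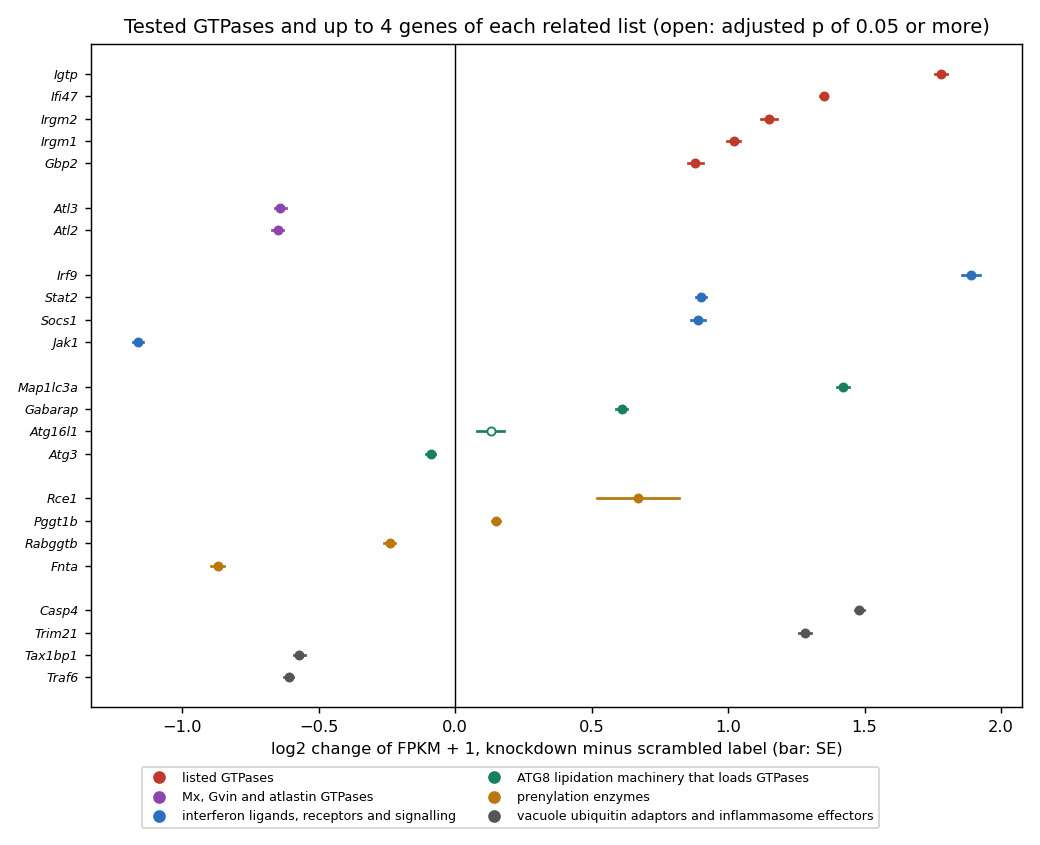
Log2 change of FPKM + 1 (x axis, bars SE) of the 5 tested listed GTPases (red) and, of 5 related lists (other colours), the up to 4 tested genes with the smallest p, 1 gene per line; filled points passed limma's adjusted p of 0.05 and open points did not. The GTPases lie between 0.88 and 1.78, while the related lists hold genes on both sides of 0.

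The 5 tested protein-coding genes whose profile over the 4 libraries lay nearest to the mean profile of the tested GTPases were Fabp7, a fatty acid carrier, Errfi1, an inhibitor of the EGF receptor, the methyltransferase Mettl22, the transcription factor Foxf1 and Mvk, mevalonate kinase. Their Euclidean distances, on log2(FPKM + 1) centred per gene, were between 0.024 and 0.028, and their log2 changes 1.22 or 1.23. Fabp7, with 7 and 9 fragments in the scrambled libraries, did not pass with no SE below counting error (limma adjusted p = 0.076). That floor is too wide at this level, and the counting interval of the depth-scaled ratio of Fabp7 was 4.07 to 12.5. With 4 libraries in 2 groups this likeness says little beyond the size of the change.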

How the data were processed

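RNA from polysomes was sequenced in 4 libraries, 2 per group; per the labels' protocols it was taken up in Trizol, captured as messenger RNA on beads and fragmented by heat. The values are FPKM deposited by the authors. The submitters' processing notes name GRCm38, mm10 and GRCm39 without a role, while aligner, counting tool and annotation are not given in the sources used. All 4 value columns were used.

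FPKM were turned back into smallest whole fragments with relative library depths of 1.0000, 1.2145, 1.2252 and 1.1241. This succeeded for 8694 (99.4%) of 8750 tested genes, up to a common divisor, so true fragment numbers can be a multiple; those of Gbp9 are not used. Fragment intervals and limits cover counting error only, since PCR copies are not independent.

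Genes with a mean of at least 1 FPKM were compared with limma 3.58.1 in R 4.3.3 (eBayes with trend) on log2(FPKM + 1), two-sided, with Benjamini-Hochberg adjustment over 8750 genes and a threshold of 0.05. Both steps were tested on simulated data. The simulation for limma drew every library independently, unlike these data, whose replicate differences are correlated as given below. It therefore does not test the calls made here. No label says that replicates are separate cultures, so the p-values may hold no spread between cultures. For the members they may not hold full technical spread either. The scrambled replicates of 6 members lay only 0.00 to 0.14 counting SDs apart, closer than counting error alone usually leaves them. The labels pair replicates by batch. The differences between replicates 1 and 2 of both groups correlated at Pearson's r = -0.83 over 8750 genes, where shared batches would give a positive value. Motifs were searched in RefSeq promoter windows with Python 3.11.15. The members and lists were chosen with earlier results of these data known. Of 114 list symbols, 90 had an entry besides the members, 5 of them through a synonym. Named were all members and relatives, the 4 tested genes with the smallest p of each further pathway list, Ifit1, the 5 nearest profiles, and others where the text says so. Alternatives were other scalings, pseudocounts, filters, a batch block, a counting-error floor and leaving out each library. Results on 2 genes of the lists are not reported here one by one.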

Additional observations from a re-analysis of the deposited data

How the results depend on the processing

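Each of the 5 tested GTPases kept its direction and stayed past the threshold under every alternative that tested it, and none of 78 member values over 16 alternatives was at or below 0 (largest adjusted p 0.035, for Iigp1 without a filter). The sign was all but fixed beforehand, since all 8 members were higher in both libraries labelled knockdown than in either scrambled one. Several alternatives, such as filters and blocks, also leave a member's log2 change as it was. The number called higher followed the number tested: 8 without a filter and with a filter of 0.1 FPKM, and 1, Irgm1, with a filter of 5 FPKM or with one on the scrambled libraries alone, a filter chosen after seeing the data. Leaving out any 1 library gave 5 higher and 0 lower members. Of all genes, 3819 of 18200 were higher without a filter, and 1583 were higher and 2213 lower with a filter of 5 FPKM. Leaving out 1 library gave 2187 to 2283 higher and 3432 to 3460 lower genes, with the lone library assumed to vary like the others. With the replicate block by batch 5 members, 2205 genes higher and 3417 lower were called, and Atg3 and Rce1 lost their calls. Median-centring reversed Atg3 (0.08) and Zfp692 (0.06), neither past the threshold then. Pairing the libraries crosswise instead, added after seeing the data, called 5 members, 2962 genes higher and 4282 lower. Depth limits Iigp1, Gbp7 and most relatives, whose scrambled libraries held 0 to 4 fragments.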

Other observations

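Iigp1 was not alone in a gap between the libraries labelled knockdown. Tgtp1, Gm12250 and Gbp6 were higher in knockdown 1 than in knockdown 2 by 1.76-fold, 1.83-fold and 1.73-fold, close to the 1.98-fold of Iigp1, while Igtp, Ifi47 and Gbp7 differed by 1.04-fold, 1.01-fold and 1.03-fold. At 9 to 26 fragments per library the gaps of these relatives were 1.70, 1.84 and 1.37 counting SDs, so only that of Iigp1, at 5.27, is well beyond counting error. Gm4841 went the other way, with 4 fragments in knockdown 1 and 10 in knockdown 2. The genes were picked after their values were seen and the cause was not tested.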
